A study of Homo sapiens with 24 samples.

Results

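SQ20B is an established squamous cell carcinoma line of the larynx, and its erlotinib-resistant cells were compared here with its erlotinib-sensitive parental cells. Erlotinib blocks the tyrosine kinase of EGFR, the epidermal growth factor receptor. The study covered 4 head and neck squamous cell carcinoma lines in 8 groups, and SQ20B was measured in the same table of 12 arrays as FaDu, a line of the pharynx. The 3 resistant SQ20B arrays held RNA of cells maintained in medium with erlotinib, and the 3 sensitive SQ20B arrays held RNA of parental cells in the same medium without it. The 3 resistant and 3 sensitive FaDu arrays were of the same 2 kinds of cells. Every culture, sensitive ones included, received the vehicle, 0.01% DMSO, for 48 h before RNA was taken. No source used here says whether erlotinib was also present during those 48 h.

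A gene was followed when a probe with 1 gene symbol was detected, at a detection p under 0.05, on at least 3 of the 12 arrays. Of 47231 probes on the array, 17424 met this rule, and they stood for 12934 of 20046 genes with a named probe, each read on its brightest probe. Levels are log2 bead signals after background correction with an offset of 16, so that probes without signal lie somewhat above 4. Changes are resistant minus sensitive on that log2 scale, given ± the standard error from limma. Gene calls rest on an adjusted p under 0.05 from limma with Benjamini-Hochberg adjustment over the 12934 genes. Of these genes, 682 passed the detection rule only through resistant SQ20B arrays, meaning that they failed it without them, and 309 only through sensitive ones. The rule favoured a difference in such genes but did not fix it. The cell markers ITGAM and DCN, which passed only through resistant arrays, stood at -0.06 ± 0.21 and -0.03 ± 0.16, not called. The labels name neither separately derived resistant cultures nor a clone, so the p-values measure the spread between these samples, which may be technical. Resistance cannot be told apart from any other difference between the 2 cultures.

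Cells usually sense foreign or misplaced nucleic acid, secrete interferon, and through its receptor, JAK kinases, STAT proteins and IRF9 switch on a large set of antiviral genes. Promoters of many of these genes carry the interferon-stimulated response element. EGFR, in turn, signals through the ERK kinases to drive squamous carcinoma cells through the cell cycle, where E2F factors switch on the genes of DNA replication. Both gene programs differed between resistant and sensitive SQ20B cells, in opposite directions.

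The promoters of some of the genes that differed most are shown for these 2 programs. Each runs 5′ to 3′ on the gene's strand, from 250 bases before to 50 bases after the gene's start, as RefSeq gives it in build GRCh38.p14. For genes with several starts in that table, the first is shown. In the first 4 promoters, capitals mark matches to the core of the interferon-stimulated response element, GAAANNGAAA, on either strand. IFI27 lies at chr14:94110486-94110785 on the plus strand, IFI44L at chr1:78620198-78620497 on the plus strand, MX1 at chr21:41420308-41420607 on the plus strand and BST2 at chr19:17405581-17405880 on the minus strand.
IFI27: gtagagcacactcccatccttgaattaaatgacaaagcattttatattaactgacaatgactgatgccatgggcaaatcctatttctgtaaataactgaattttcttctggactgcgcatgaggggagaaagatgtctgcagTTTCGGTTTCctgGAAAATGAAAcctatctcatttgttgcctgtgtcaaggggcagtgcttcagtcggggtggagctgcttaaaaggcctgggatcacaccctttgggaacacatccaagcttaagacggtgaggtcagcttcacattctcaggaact
IFI44L: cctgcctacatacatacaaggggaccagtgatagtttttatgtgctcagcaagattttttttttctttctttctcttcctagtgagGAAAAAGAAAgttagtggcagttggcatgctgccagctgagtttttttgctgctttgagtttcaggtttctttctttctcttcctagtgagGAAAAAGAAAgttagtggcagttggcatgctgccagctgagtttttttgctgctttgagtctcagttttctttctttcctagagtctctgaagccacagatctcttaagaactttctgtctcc
MX1: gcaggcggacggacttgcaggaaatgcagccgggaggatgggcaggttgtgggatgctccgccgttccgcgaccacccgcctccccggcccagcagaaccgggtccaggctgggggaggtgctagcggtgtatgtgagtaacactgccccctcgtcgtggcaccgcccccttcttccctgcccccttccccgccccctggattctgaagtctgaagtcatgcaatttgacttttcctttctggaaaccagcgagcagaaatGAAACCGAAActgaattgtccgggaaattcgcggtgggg
BST2: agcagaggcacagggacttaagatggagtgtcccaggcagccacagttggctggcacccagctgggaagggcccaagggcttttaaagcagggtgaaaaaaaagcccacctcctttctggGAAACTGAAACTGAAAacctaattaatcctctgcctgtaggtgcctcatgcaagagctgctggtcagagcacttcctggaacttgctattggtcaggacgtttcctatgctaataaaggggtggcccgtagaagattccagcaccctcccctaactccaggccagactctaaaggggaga
IFI27, IFI44L and BST2 each held 2 matches and MX1 held 1. Those of BST2 overlap each other. Of the 44 genes on the list of type I interferon-stimulated genes, 36 were in the promoter table and 28 of them, 77.8%, held the core in at least 1 promoter. The share was 4.38% of all 27305 genes in the table and 3.98% of the 10286 tested genes found in it.

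For the genes of DNA replication, capitals mark a core that E2F factors bind, TTCCCGC, on either strand. UHRF1, which maintains DNA methylation at the replication fork, and GINS2, a subunit of the replicative helicase, were chosen after their values were seen. They had the lowest changes on the replication list with a match in the first promoter, outside a chromosome that was left out of this choice. UHRF1 lies at chr19:4909251-4909550 on the plus strand and GINS2 at chr16:85688905-85689204 on the minus strand.
UHRF1: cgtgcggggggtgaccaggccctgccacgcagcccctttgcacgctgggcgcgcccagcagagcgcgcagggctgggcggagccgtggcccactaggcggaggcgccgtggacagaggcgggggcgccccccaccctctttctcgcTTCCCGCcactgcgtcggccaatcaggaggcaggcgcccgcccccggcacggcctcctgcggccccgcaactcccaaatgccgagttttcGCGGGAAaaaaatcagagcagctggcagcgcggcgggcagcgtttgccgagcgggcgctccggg
GINS2: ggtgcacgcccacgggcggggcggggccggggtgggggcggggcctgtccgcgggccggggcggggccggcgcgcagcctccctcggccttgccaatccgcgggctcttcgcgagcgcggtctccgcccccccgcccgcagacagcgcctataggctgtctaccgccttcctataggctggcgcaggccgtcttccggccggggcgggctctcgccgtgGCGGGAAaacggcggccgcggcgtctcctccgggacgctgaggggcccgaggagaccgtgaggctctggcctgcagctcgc
Of 32 replication genes in the promoter table, 16 held this core, 50%, against 12.3% of the tested genes in the table and 7.82% of all its genes. The share was 7.41% of mitosis genes and 19.4% of the interferon-stimulated genes. UHRF1 had levels of 9.62, 9.85 and 9.82 on the resistant arrays, against 11.57, 11.90 and 11.66 on the sensitive arrays. GINS2 had levels of 9.75, 9.74 and 9.76 on the resistant arrays, against 11.29, 11.35 and 11.33 on the sensitive arrays. They fell by 1.94 ± 0.11 and 1.57 ± 0.07 (limma adjusted p of 1.03e-08 and 2.95e-09), with no overlap between the groups. Over all tested genes the groups did not overlap for 64.9% (33.9% higher and 30.9% lower), so a lack of overlap is common here. The up to 4 members named per list and direction below were picked for a call and a lack of overlap, so neither adds support. The sterol element TCACNCCAC was searched in the same way and was found in 1 of 18 genes of cholesterol synthesis, against 1.49% of the tested genes and 1.39% of all genes in the table. All these matches describe letters in a window and not sites in use.

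Both SQ20B groups expressed epithelial genes. Of all tested genes, 31.0% were called higher in resistant cells and 28.1% lower, and the marker counts here are to be read against these shares. Of 13 squamous markers, 10 had a named probe, of which 5 were called higher and 2 lower. The 2 were KRT5 and SFN, at -1.63 ± 0.09 and -1.34 ± 0.08. Of the 10, 9 were detected on all 3 arrays of both groups. KRT14, a basal keratin, was the exception, undetected on all 6 arrays. The lymphocyte and natural killer markers CD3E and NKG7, the pan-leukocyte marker PTPRC, the fibroblast markers PDGFRA, PDGFRB and THY1 and the endothelial markers KDR and TEK were also undetected on all 6 arrays. Other markers of these cells were detected on all 6 arrays, the leukocyte markers CD14 at 6.13 in resistant and 6.06 in sensitive cells and CD68 at 8.88 in resistant and 8.45 in sensitive cells, and the endothelial markers CDH5 at 8.08 in resistant and 7.93 in sensitive cells and VWF at 6.45 in resistant and 5.97 in sensitive cells. Of 7 tested genes on the list of leukocyte, endothelial and melanocyte markers, 3 rose (42.9%, against 31.0% of all genes) and 0 fell. The 3 were PMEL by 0.55 ± 0.14, VWF by 0.48 ± 0.12 and CD68, a lysosomal protein, by 0.43 ± 0.12. The summed signal of 9 leukocyte markers was 678 to 768 in resistant cells and 549 to 649 in sensitive cells, and its part in the results was not tested. Replicate arrays correlated at 0.995 within the resistant group and at 0.993 to 0.994 within the sensitive group, and at 0.931 to 0.933 between the groups, across genes, which are not independent replicates. Resistant arrays detected 20972 to 21271 probes, against 18786 to 19222 on sensitive arrays. The part of this difference in the results below was not tested.

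In all, 7642 genes were called, 59.1% of those tested, with 4005 higher in resistant cells (31.0%) and 3637 lower (28.1%). Many of these differences were small, and 3078 of the called genes, 40.3%, differed by less than 1.5-fold. At least a 2-fold difference was called for 1199 genes higher (9.27%) and 775 genes lower (5.99%). At the upper end the counts parted: 288 genes were at least 4-fold higher and 53 at least 4-fold lower, and 36 were at least 16-fold higher and 0 at least 16-fold lower. The median change over all genes was 0.01. Counts of called list members below are to be read against the 31.0% higher and 28.1% lower over all genes. In RNA from a whole culture, fewer cells of a type and less RNA per cell cannot be told apart. The 2-fold counts depended on the background correction, and stood at 591 higher and 315 lower without it.

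**Figure D1:**
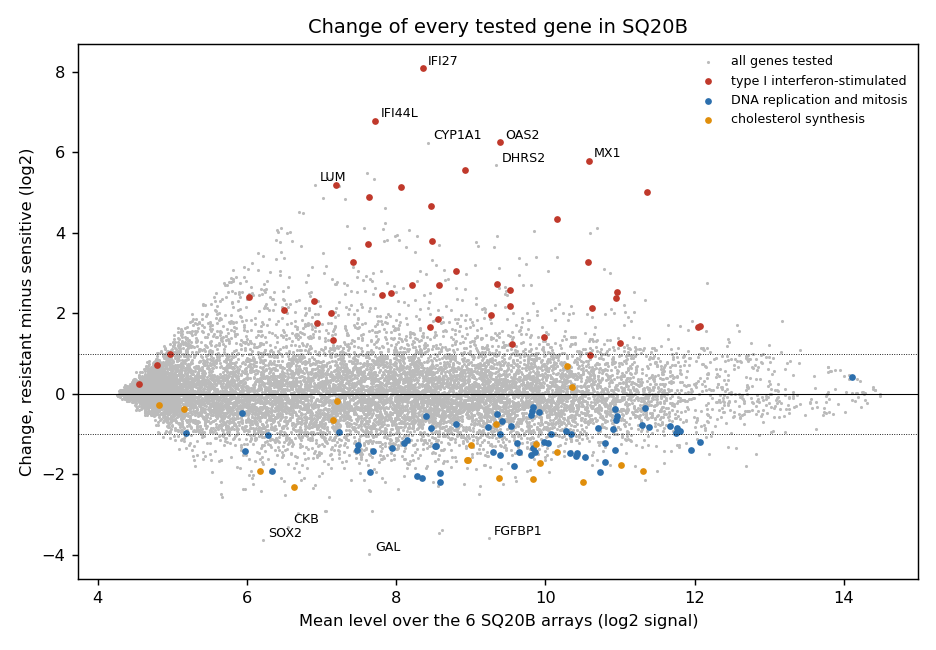
Change of each of the 12934 tested genes, resistant minus sensitive SQ20B on the log2 scale (vertical axis), against its mean level over the 6 SQ20B arrays (horizontal axis), with dotted lines at 2-fold. The 44 interferon-stimulated genes (red) all lie above 0, and the genes of DNA replication and mitosis (blue) lie below 0 with the exception of ORC6, which was called at 0.43.

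Type I interferon-stimulated genes took 6 of the 12 highest places. IFI27, a mitochondrial membrane protein induced by interferon, had levels of 12.53, 12.40 and 12.28 on the resistant arrays, against 4.31, 4.27 and 4.34 on the sensitive arrays. It was undetected on all 3 sensitive arrays and was at least 179.6-fold higher in resistant cells (limma adjusted p = 3.35e-14). Where a probe was undetected in a group, the fold is a lower bound for that probe under this background correction. The undetected level was raised on each array to at least the faintest detected probe there. IFI44L, another interferon-induced gene, had levels of 11.16, 11.06 and 11.11 on the resistant arrays, against 4.37, 4.33 and 4.26 on the sensitive arrays, where it was undetected. It was at least 73.5-fold higher on its brightest probe (limma adjusted p = 3.35e-14). A dimmer IFI44L probe rose by 2.46 ± 0.15, and the change of the gene was 4.56 without background correction. OAS2, an oligoadenylate synthetase that senses double-stranded RNA, had 12.56, 12.53 and 12.46 in resistant cells, against 6.30, 6.37 and 6.12 in sensitive cells, a change of 6.26 ± 0.09 (limma adjusted p = 1.15e-13), or 3.36 with the mean of its probes. In none of these genes did the 2 groups come near each other.

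MX1, an antiviral GTPase, had 13.51, 13.44 and 13.49 on the resistant arrays, against 7.50, 7.93 and 7.61 on the sensitive arrays, a change of 5.80 ± 0.10. Its relative MX2 was undetected in sensitive cells, with 9.79, 9.84 and 9.76 on the resistant arrays and 4.71, 4.47 and 4.60 on the sensitive arrays, and was at least 29.5-fold higher. LAMP3, a lysosomal membrane glycoprotein, changed by 5.56 ± 0.16. All 3 were called, with limma adjusted p of 7.49e-13, 1.65e-11 and 4.76e-11. The sensitive arrays were below the resistant arrays throughout. BST2, or tetherin, which holds budding virus at the cell surface, had 10.59, 10.61 and 10.71 on the resistant arrays and 5.67, 5.31 and 5.50 on the sensitive arrays. IFI44 had 10.72, 10.81 and 10.86 on the resistant arrays and 6.06, 6.06 and 6.26 on the sensitive arrays. They changed by 5.14 ± 0.09 and 4.66 ± 0.09 and were called at limma adjusted p of 8.39e-13 and 1.2e-12.

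All 44 interferon-stimulated genes of the list were called higher, 40 of them at least 2-fold, against 31.0% and 9.27% of all genes. Their changes ran from 0.23 to 8.09 with a median of 2.48, against 0.01 over all genes. The list was written with results of these data known, so its direction is a description. The lowest member was EPSTI1 at 0.23 ± 0.09 (limma adjusted p = 0.0453), which was detected on 1 of 3 resistant and 0 of 3 sensitive arrays and passed the detection rule through FaDu. The call of EPSTI1, named after its values were seen, ended under 12 of 16 other settings. Over those settings, 42 to 44 members were called higher and 0 lower.

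Upstream of these genes the picture was mixed. Of 27 tested genes that sense nucleic acid or carry the interferon signal, 16 rose, 4 fell and 7 were not called, against 31.0% of all genes higher and 28.1% lower, with a median of 0.37. IRF7, the factor that drives interferon genes, had 11.36, 11.27 and 11.31 on the resistant arrays, against 7.31, 7.33 and 7.53 on the sensitive arrays, and rose by 3.92 ± 0.08. IRF9, the DNA-binding part of the interferon-activated complex, had 11.01, 10.95 and 10.93, against 7.25, 7.23 and 7.09, and rose by 3.77 ± 0.09. RIGI and IFIH1, which sense viral RNA in the cytosol, rose by 2.53 ± 0.09 and 2.21 ± 0.12. The limma adjusted p for these 4 genes ran from 2.66e-12 to 1.45e-08. IFNB1, IFNA1, IFNL1, IFNL2, IFNK and IFNG, interferon genes, did not meet the detection rule. IRF2 fell by 0.38 ± 0.14 and TBK1, a kinase below the RNA and DNA sensors, by 0.37 ± 0.10. MAVS, the adaptor of the RNA sensors, fell by 0.68 ± 0.11, and CGAS, a DNA sensor, fell by 1.14 ± 0.17, with levels of 5.54, 5.50 and 5.42 on the resistant arrays and 7.05, 6.39 and 6.43 on the sensitive arrays. The call of MAVS ended with the mean of its probes, and that of IRF2 under 6 of the 16 other settings.

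Genes that present antigen also stood higher. Of 18 genes of HLA class I and peptide loading, 15 rose and 1 fell, with a median of 1.00. HLA-B, a class I heavy chain, had 11.93, 11.92 and 11.80 on the resistant arrays, against 7.70, 7.82 and 7.95 on the sensitive arrays, and rose by 4.06 ± 0.09 (limma adjusted p = 2.34e-12). HLA-F rose by 3.84 ± 0.12 and HLA-G by 2.12 ± 0.20, though class I genes are alike in sequence and a probe may read several of them. B2M, the shared light chain, had 13.37, 13.43 and 13.46 on the resistant arrays and 11.77, 11.68 and 11.69 on the sensitive arrays, and rose by 1.71 ± 0.08. CALR, a chaperone of class I assembly, was the 1 gene that fell, by 0.85 ± 0.10. Of 17 guanylate-binding and other genes typical of interferon gamma, 7 rose, 0 fell and 10 were not called. GBP1, a large GTPase, rose by 3.41 ± 0.09 and GBP2 by 2.98 ± 0.10, GBP4 was at least 6.88-fold higher, and WARS1, a tryptophan tRNA synthetase, rose by 1.92 ± 0.09.

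**Figure D2:**
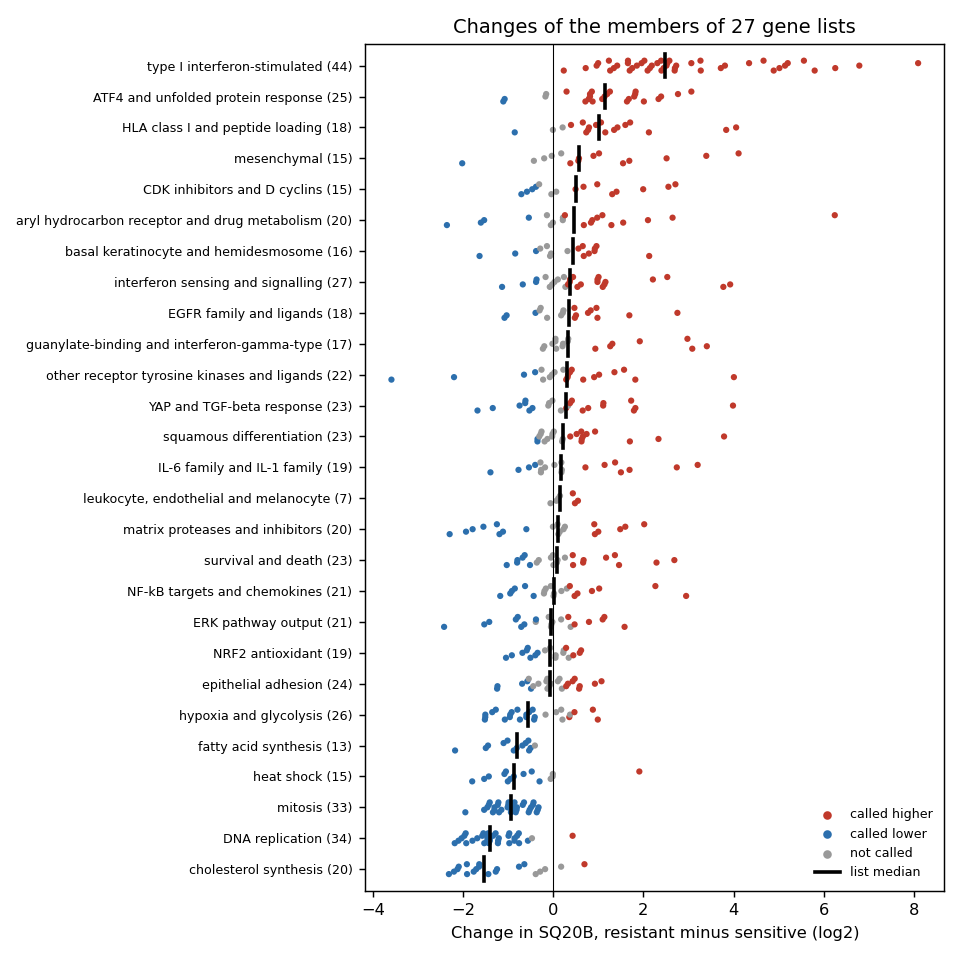
Changes, resistant minus sensitive SQ20B on the log2 scale (horizontal axis), of the tested members of 27 gene lists, ordered by list median, with the number of tested members in brackets. Each point is a gene, red where called higher, blue where called lower and grey where not called, and bars mark medians, which run from 2.48 for interferon-stimulated genes to -1.54 for cholesterol synthesis.

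Genes that drive division stood lower almost without exception. Of 34 tested DNA replication genes, 32 fell and 1 rose, with a median of -1.41, and all 33 tested mitosis genes fell, with a median of -0.93, against 28.1% of all genes. At least a 2-fold fall was called for 23 replication and 13 mitosis genes. RRM2, the small subunit of ribonucleotide reductase, had 7.29, 7.21 and 7.39 on the resistant arrays, against 9.41, 9.47 and 9.33 on the sensitive arrays, and fell by 2.10 ± 0.13. MCM5, a subunit of the replicative helicase, had 7.27, 7.35 and 7.16, against 9.34, 9.34 and 9.20, and fell by 2.03 ± 0.09. The groups did not overlap in either. POLE2, a subunit of DNA polymerase epsilon, fell by 2.19 ± 0.11 and MCM10, which helps start the fork, by 1.97 ± 0.09. The limma adjusted p for these 4 genes ran from 1.59e-09 to 4.45e-08.

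Among mitosis genes, PLK1, a mitotic kinase, had 6.73, 6.35 and 6.94 on the resistant arrays, against 8.56, 8.60 and 8.72 on the sensitive arrays, and fell by 1.95 ± 0.14. CCNA2, cyclin A, fell by 1.53 ± 0.09, the kinesin KIF20A by 1.46 ± 0.09, and BUB1B, a checkpoint kinase, by 1.43 ± 0.12 (limma adjusted p of 1.3e-08 to 4.18e-07 for the 4 genes). The 1 replication gene called higher was ORC6, part of the origin recognition complex, at 0.43 ± 0.08. Its probes disagreed: a dimmer ORC6 probe fell by 1.12 ± 0.12 (limma adjusted p = 3.63e-06 over all probes), and the mean of the probes fell by 0.35. Across the 16 other settings, 31 to 33 replication genes and 32 or 33 mitosis genes were called lower.

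Several inhibitors of the cyclin-dependent kinases rose. CDKN2B, which blocks CDK4 and CDK6, had 11.12, 11.19 and 10.84 on the resistant arrays, against 8.33, 8.48 and 8.21 on the sensitive arrays, and rose by 2.71 ± 0.11. CDKN1A, the inhibitor p21, had 11.26, 11.43 and 11.26, against 9.38, 9.26 and 9.32, and rose by 2.00 ± 0.09. CDKN2A rose by 1.40 ± 0.07 and GADD45A, a growth arrest gene, by 2.55 ± 0.11. Each of these was called (limma adjusted p of 5.98e-10 to 7.55e-09) with no overlap between the groups, both of which the rule for naming them required. Of the 15 tested genes of CDK inhibitors and their partners, 8 rose and 4 fell. CCND3, a D cyclin, fell by 0.71 ± 0.09, RB1, the retinoblastoma gene, by 0.58 ± 0.10, CDK4 by 0.47 ± 0.08 and the inhibitor CDKN2D by 0.38 ± 0.11, a call that ended with median scaling, at -0.20.

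EGFR itself, the target of the drug, was higher in resistant cells on its brightest probe, with 13.39, 13.36 and 13.37 on the resistant arrays, against 12.37, 12.37 and 12.50 on the sensitive arrays. It rose by 0.96 ± 0.08 (limma adjusted p = 2.98e-07). Of 3 dimmer EGFR probes, 1 rose by 0.63 ± 0.12 and 2 stood near background at -0.32 ± 0.18 and -0.03 ± 0.18, neither called, and the mean of its probes rose by 0.31. ERBB2 had 9.89, 9.73 and 9.82 on the resistant arrays and 9.41, 9.29 and 9.32 on the sensitive arrays, and rose by 0.47 ± 0.09. ERBB3, a receptor for neuregulins, rose by 0.48 ± 0.12 on its brightest probe, while 1 dimmer ERBB3 probe fell by 0.54 ± 0.16, another stood at -0.27 ± 0.19 without a call, and the mean of its probes stood at -0.11. The direction of ERBB3 depended on the choice of probe.

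The ligands split. HBEGF, heparin-binding EGF-like growth factor, had 9.21, 9.26 and 9.28 on the resistant arrays, against 6.43, 6.52 and 6.53 on the sensitive arrays, and rose by 2.75 ± 0.10 (limma adjusted p = 3.22e-10). TGFA, another EGFR ligand, had 8.64, 8.72 and 8.77 on the resistant arrays, against 9.84, 9.69 and 9.85 on the sensitive arrays, and fell by 1.08 ± 0.13. NRG1, a neuregulin, fell by 1.03 ± 0.14. NRG4 was undetected in sensitive cells and at least 1.71-fold higher. LRIG1, a membrane protein that restrains EGFR, rose by 1.69 ± 0.09, and SHC1, an adaptor, fell by 0.39 ± 0.09. Of 18 tested genes of the EGFR family, its ligands and close regulators, 9 rose and 3 fell, with a median of 0.35.

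Transcripts that ERK signalling usually raises did not move together, with 6 of 21 higher (28.6%), 8 lower (38.1%) and a median of -0.05. Of all genes, 31.0% were higher and 28.1% lower. DUSP6, the phosphatase that dampens ERK, averaged 6.44 ± 0.03 on the resistant arrays and 8.86 ± 0.20 on the sensitive arrays (SD, n = 3 each), without overlap, and fell by 2.42 ± 0.15 (limma adjusted p = 2.59e-08). FOSL1, a factor of the AP-1 family, fell by 1.53 ± 0.15, HMGA2 by 1.42 ± 0.22 and the ETS factor ETV4 by 0.83 ± 0.14. JUN, a partner of FOSL1, rose by 1.58 ± 0.12, IER3 by 1.13 ± 0.09, SPRY2, an inhibitor of receptor signalling, by 1.10 ± 0.08 and EGR1 by 0.79 ± 0.21. The list of receptor tyrosine kinases other than the EGFR family and their ligands also held binding proteins such as IGFBP5 and FGFBP1. Of its 22 tested genes, 12 rose, or 9 to 12 under the other settings, and 4 fell, against 31.0% of all genes higher. The count was not split between receptors and the other members. IGFBP5, which binds insulin-like growth factors, was undetected in sensitive cells and at least 12.3-fold higher on its brightest probe. A dimmer IGFBP5 probe rose by 2.94 ± 0.13, and IGFBP3 and IGFBP7 rose by 1.57 ± 0.11 and 1.36 ± 0.10. FGF2, a fibroblast growth factor, rose by 1.82 ± 0.13. FGFBP1, which releases fibroblast growth factors from the matrix, fell by 3.59 ± 0.12, FGFR3 by 2.20 ± 0.10, EPHA2 by 0.65 ± 0.10 and TYRO3 by 0.40 ± 0.11. The call of TYRO3 ended with median scaling, at -0.25, and FGFR3 stood at -1.17 with the mean of its probes.

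**Figure D3:**
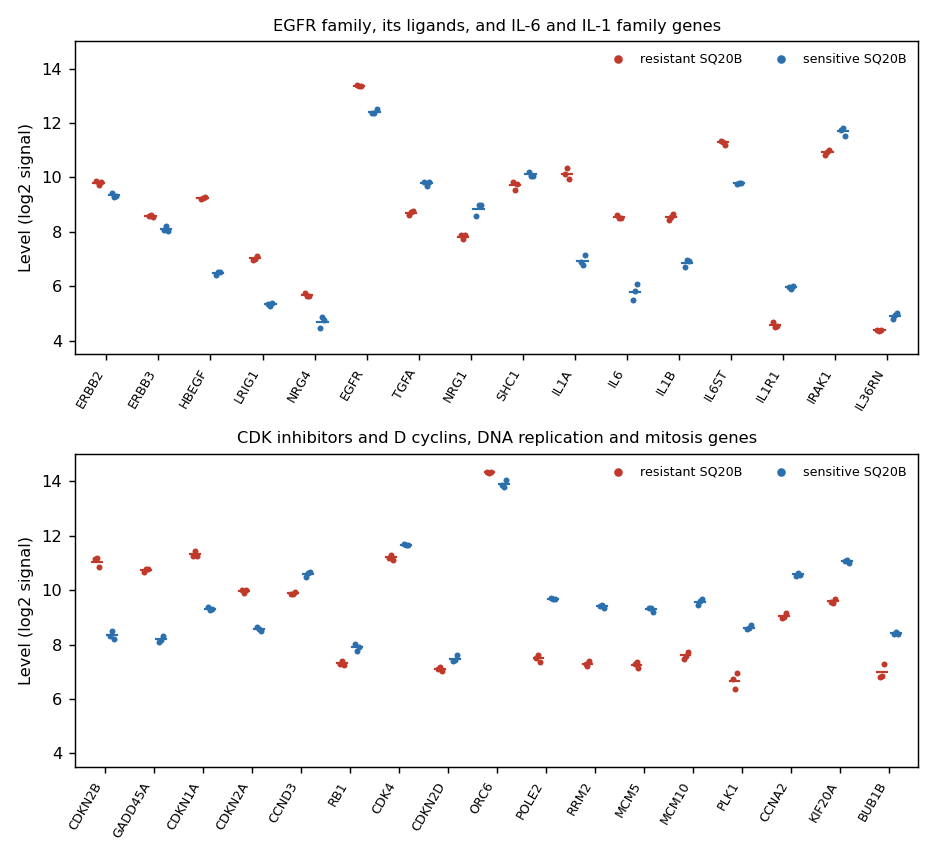
Level in each SQ20B array (log2 signal, vertical axis) for genes of the EGFR family and of the IL-6 and IL-1 families (upper panel) and for genes of the cell cycle (lower panel), resistant arrays in red left of sensitive arrays in blue, with bars at the means. HBEGF sits at 9.21 to 9.28 in resistant cells and 6.43 to 6.53 in sensitive cells, and RRM2 at 7.21 to 7.39 in resistant cells and 9.33 to 9.47 in sensitive cells.

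The IL-6 and IL-1 families hold cytokines that act on epithelial and immune cells. IL6 had 8.61, 8.51 and 8.51 on the resistant arrays, against 5.50, 5.82 and 6.10 on the sensitive arrays, with no overlap. IL1A, an alarm cytokine of epithelia, had 10.13, 10.35 and 9.94 on the resistant arrays, against 6.88, 6.77 and 7.15 on the sensitive arrays. IL6, IL1A and IL1B, the second form of interleukin 1, rose by 2.74 ± 0.14, 3.20 ± 0.14 and 1.69 ± 0.11. IL6ST, the signalling chain shared by receptors of the IL-6 family, had 11.34, 11.32 and 11.21 on the resistant arrays, against 9.76, 9.80 and 9.80 on the sensitive arrays, and rose by 1.50 ± 0.10 (limma adjusted p = 4.84e-08). IL1R1, the receptor for IL1A and IL1B, was undetected on all resistant arrays and at least 2.30-fold lower there. IL1R1 met the detection rule only through the sensitive SQ20B arrays, so that the rule itself favoured a difference. IRAK1, a kinase below that receptor, fell by 0.77 ± 0.10, and IL36RN, undetected on all resistant arrays and detected on 1 of 3 sensitive arrays, was at least 1.12-fold lower, a call that ended with the authors' processed values. Of 19 tested genes in these families, 7 rose (36.8%) and 4 fell (21.1%), against 31.0% and 28.1% of all genes.

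NF-kB targets and chemokines showed no common direction, with 7 of 21 higher (33.3%), 6 lower (28.6%) and a median of 0.01. Of all genes, 31.0% were higher and 28.1% lower. CFB, complement factor B, had 7.95, 7.96 and 7.83 on the resistant arrays, against 4.96, 4.80 and 5.14 on the sensitive arrays, and rose by 2.95 ± 0.11. LCN2, lipocalin that binds iron carriers, rose by 2.27 ± 0.12, RELB by 0.86 ± 0.11, and SAA1, an acute-phase protein, was at least 1.5-fold higher. The neutrophil chemokine genes CXCL1 and CXCL8 fell by 1.18 ± 0.18 and 0.92 ± 0.10, SOD2, a mitochondrial superoxide dismutase, by 0.95 ± 0.10, and NFKBIA, the inhibitor that NF-kB itself induces, by 0.85 ± 0.13. All of these calls had limma adjusted p of 9.08e-05 or lower. CXCL1 was detected on 1 of 3 resistant arrays. Without background correction CXCL1 stood at -0.40 and CXCL8 at -0.35, and a dimmer CXCL8 probe at -0.46 ± 0.20 was not called.

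Enzymes that make sterols and fatty acids stood lower. Of 20 tested genes of cholesterol synthesis, 15 fell and 1 rose, with a median of -1.54, and of 13 genes of fatty acid synthesis, 12 fell and 0 rose, with a median of -0.81. INSIG1, the sterol-sensing retention protein, had 9.36, 9.43 and 9.44 on the resistant arrays, against 11.61, 11.62 and 11.60 on the sensitive arrays, and fell by 2.20 ± 0.08. DHCR7, which catalyses the last step to cholesterol, had 8.37, 8.29 and 8.32, against 10.31, 10.49 and 10.46, and fell by 2.10 ± 0.08. The groups were clearly separate. ACAT2 fell by 2.12 ± 0.09 and MVD, mevalonate diphosphate decarboxylase, by 2.31 ± 0.13, while HSD17B7 rose by 0.69 ± 0.17. FASN, fatty acid synthase, fell by 1.50 ± 0.08, ELOVL6, an elongase, by 2.18 ± 0.11, ACLY fell by 1.45 ± 0.12, and SREBF1, the factor that drives these genes, by 1.10 ± 0.08.

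Of 26 glycolysis and hypoxia genes, 17 fell and 4 rose. LDHA, lactate dehydrogenase, had 12.08, 12.02 and 12.13 on the resistant arrays, against 13.47, 13.64 and 13.64 on the sensitive arrays, and fell by 1.51 ± 0.08. GPI fell by 1.52 ± 0.10, PGAM1 fell by 1.51 ± 0.11 and ALDOC fell by 1.35 ± 0.10, all enzymes of glycolysis. VEGFA, the vascular growth factor, rose by 0.99 ± 0.10, the hexokinase HK2 by 0.88 ± 0.12, BNIP3 by 0.47 ± 0.11 and ADM by 0.36 ± 0.11. The call of ADM ended with median scaling and without resistant replicate 2 or sensitive replicate 1, where it stood at 0.14, 0.31 and 0.28. Heat shock genes, which encode chaperones, fell in 11 of 15 cases, HSPA8 by 1.80 ± 0.09, HSPA4 by 1.53 ± 0.11, HSP90AB1 by 1.43 ± 0.08 and HSPH1 by 1.08 ± 0.07. HSPB8, a small heat shock protein, was the 1 member that rose, by 1.91 ± 0.12.

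Amino acid and stress response genes, in contrast, were largely higher. Of 25 tested genes of the ATF4 and unfolded protein response, 21 rose and 2 fell, with a median of 1.14. ATF3, a stress-induced transcription factor, had 9.32, 9.35 and 9.30 on the resistant arrays, against 6.36, 6.27 and 6.15 on the sensitive arrays, and rose by 3.06 ± 0.10. DDIT3, which encodes CHOP, had 10.38, 10.28 and 10.13, against 7.99, 7.84 and 7.79, and rose by 2.39 ± 0.10. STC2, a secreted glycoprotein, rose by 2.34 ± 0.10, and VLDLR, a lipoprotein receptor, was at least 4.47-fold higher. These 4 genes were called with limma adjusted p of 1.56e-10 to 1.27e-09 and no overlap. The 2 members that fell, CRELD2 by 1.11 ± 0.10 and SDF2L1 by 1.08 ± 0.07, both act in the endoplasmic reticulum.

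Drug-metabolizing genes were led by CYP1A1, a cytochrome P450 induced through the aryl hydrocarbon receptor. It had 11.62, 11.56 and 11.47 on the resistant arrays, against 5.46, 4.82 and 5.64 on the sensitive arrays, of which 2 detected it, a change of 6.24 ± 0.22 (limma adjusted p = 1.75e-10). CYP1B1 and TIPARP, further targets of that receptor, rose by 2.65 ± 0.12 and 1.55 ± 0.09, and CYP26A1, which breaks down retinoic acid, rose by 2.10 ± 0.15, or by 0.89 with the mean of its probes. ABCC2 and ABCG2, transporters that export drugs, were lower. ABCC2 had 4.63, 4.58 and 5.11 on the resistant arrays, against 7.13, 7.07 and 7.19 on the sensitive arrays. ABCC2 fell by 2.36 ± 0.23 and ABCG2 fell by 1.61 ± 0.09. CYP2S1 fell by 1.53 ± 0.14 and CYP27B1 by 0.54 ± 0.16. Of 20 tested genes here, 11 rose and 4 fell. Of 19 antioxidant targets of NRF2, 4 rose, 0 of them at least 2-fold, and 8 fell. FTL, ferritin light chain, rose by 0.62 ± 0.09, or by 0.35 with median scaling, TXNRD1 by 0.59 ± 0.08, NFE2L2, which encodes NRF2, by 0.44 ± 0.07 and GCLC by 0.28 ± 0.08. PGD fell by 1.05 ± 0.08, ME1 by 0.68 ± 0.10 and TXN, thioredoxin, by 0.59 ± 0.09, and GPX2 was at least 1.53-fold lower.

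Keratinocyte genes changed unevenly. KRT16, a keratin of activated epidermis, had 9.50, 9.74 and 9.95 on the resistant arrays, against 6.07, 5.90 and 5.86 on the sensitive arrays, and rose by 3.79 ± 0.13, or by 2.07 with the mean of its probes, of which a dimmer one was not called. KRT5, the basal keratin, had 9.76, 9.86 and 9.99 on the resistant arrays, against 11.58, 11.53 and 11.42 on the sensitive arrays, and fell by 1.63 ± 0.09. FLG, filaggrin, rose by 2.33 ± 0.09 and KLK5, a peptidase of skin shedding, by 1.70 ± 0.10 (limma adjusted p of 1.49e-10 to 1.59e-08 for the 4 genes). Of 23 squamous differentiation genes, 11 rose and 2 fell. Here CSTA rose by 0.93 ± 0.10 and the peptidase KLK6 fell by 0.35 ± 0.09. KLK11, undetected on all resistant arrays and detected on 1 of 3 sensitive arrays, was at least 1.04-fold lower, and its call ended with the authors' processed values and without background correction. Of 16 basal keratinocyte and hemidesmosome genes, 8 rose and 3 fell. PDPN, podoplanin, rose by 2.13 ± 0.11, ITGA3 by 0.96 ± 0.09, and LAMB3, a chain of epithelial laminin, by 0.92 ± 0.08, and PLEC fell by 0.84 ± 0.13. DST rose by 0.92 ± 0.11 on its brightest probe, while a dimmer DST probe fell by 0.42 ± 0.11, and the mean of its probes stood at 0.33.

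Among 4 keratins of simple epithelia, KRT8 fell by 1.33 ± 0.08 and KRT19 fell by 1.14 ± 0.11. KRT7 stood at 0.24 ± 0.13, not called, and KRT18 did not meet the detection rule. CDH1, E-cadherin, stood at 0.19 ± 0.08 (limma adjusted p = 0.0636) and EPCAM at -0.09 ± 0.09 (limma adjusted p = 0.409), neither called. EPCAM was called at -0.36 with median scaling and at -0.25 with the mean of its probes, and CDH1 was called under 5 other settings, at 0.19 to 0.24. Of 24 epithelial adhesion genes, 8 rose (33.3%) and 5 fell (20.8%), against 31.0% and 28.1% of all genes. The desmosomal cadherins DSG3 and DSC3 rose by 1.07 ± 0.10 and 0.59 ± 0.10, CLDN1, a tight junction claudin, by 0.92 ± 0.09 and JUP, plakoglobin, by 0.57 ± 0.08. CLDN3 fell by 1.25 ± 0.13, ST14, the protease matriptase, fell by 1.24 ± 0.09, PKP2 by 0.69 ± 0.08 and PKP3 by 0.57 ± 0.12, and the call of PKP3 ended with median scaling and with the mean of its probes.

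Of 15 tested genes of mesenchymal cells, 10 rose and 1 fell, against 31.0% and 28.1% of all genes, and 13 more did not meet the detection rule. COL5A1, a fibrillar collagen, had 9.66, 9.59 and 9.62 on the resistant arrays, against 5.49, 5.66 and 5.38 on the sensitive arrays, and rose by 4.11 ± 0.13. TAGLN, which binds actin, had 11.70, 11.92 and 11.92, against 8.41, 8.36 and 8.58, and rose by 3.39 ± 0.13. TWIST1, a factor of epithelial to mesenchymal transition, had 9.79, 9.52 and 9.81, against 7.24, 7.12 and 7.22, and rose by 2.51 ± 0.14. Each was called (limma adjusted p of 7.81e-11 to 1.09e-08) with the groups well apart. COL6A1 rose by 1.69 ± 0.14, and S100A4, a calcium-binding protein, fell by 2.02 ± 0.16, with the mean of its probes at -1.15. LUM, which encodes the matrix proteoglycan lumican and also marks fibroblasts, had 9.39, 9.62 and 9.50 on the resistant arrays, against 4.34, 4.37 and 4.21 on the sensitive arrays, where it was undetected. It was at least 24.2-fold higher on its brightest probe, and a dimmer LUM probe rose by 1.47 ± 0.10. LUM and COL3A1, a fibrillar collagen, met the detection rule only through the resistant SQ20B arrays, so that the rule itself favoured a difference. Of 8 fibroblast markers, these 2 were higher and 0 lower, and no other tested marker was called. Their summed signal was 839.9 to 982 in resistant cells and 178 to 193 in sensitive cells, and without LUM it was 167 to 193 in resistant cells and 159 to 173 in sensitive cells. DCN, detected on 1 of 3 arrays in each group, stood at -0.03 ± 0.16.

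Matrix proteases and their inhibitors were divided. The inhibitors TIMP3 and TIMP2 rose by 2.02 ± 0.13 and 1.60 ± 0.10, while PLAT, tissue plasminogen activator, fell by 2.30 ± 0.10 and MMP12, a macrophage-type elastase, by 1.93 ± 0.14. MMP10 and MMP1 were undetected on all resistant arrays and at least 2.71-fold and 2.43-fold lower. ADAMTS1 rose by 1.49 ± 0.14 and CTSL, a lysosomal cathepsin, by 1.00 ± 0.08. Of 20 genes, 6 rose (30%) and 8 fell (40%), against 31.0% and 28.1% of all genes. Among 23 genes that respond to YAP and TGF-beta, 11 rose (47.8%) and 7 fell (30.4%). CCN2, connective tissue growth factor, had 12.47, 12.70 and 12.60 on the resistant arrays, against 8.49, 8.63 and 8.69 on the sensitive arrays, and rose by 3.99 ± 0.12 (limma adjusted p = 4.76e-11). CCN1 rose by 1.82 ± 0.08, TGFB2 by 1.79 ± 0.09 and BMP2 by 1.73 ± 0.16. ID1 and ID3, targets of bone morphogenetic proteins, fell by 1.34 ± 0.07 and 0.62 ± 0.13, SMAD6, an inhibitor of that pathway, by 1.68 ± 0.18, and TEAD1, the partner of YAP, by 0.75 ± 0.15.

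Among 23 survival and death genes, 9 rose (39.1%) and 6 fell (26.1%), against 31.0% and 28.1% of all genes. CASP1, the inflammatory caspase, had 9.39, 9.19 and 9.36 on the resistant arrays, against 6.75, 6.61 and 6.51 on the sensitive arrays, and rose by 2.69 ± 0.10. TNFSF10, the death ligand TRAIL, had 9.69, 9.56 and 9.49, against 7.72, 7.26 and 6.89, and rose by 2.29 ± 0.16. CFLAR, an inhibitor of death receptors, rose by 1.46 ± 0.12 and CASP4 by 1.37 ± 0.08. Among the 6 that fell were BIK by 1.03 ± 0.09, TNFRSF10A, a receptor for TRAIL, by 0.80 ± 0.14, the BCL2-family gene BCL2L11, which encodes BIM, by 0.79 ± 0.16 and BAX by 0.68 ± 0.11. All 8 were called, with limma adjusted p of 3.97e-10 to 0.000766.

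Beyond these groups, other genes stood at the 2 ends of the range. DHRS2, a short-chain dehydrogenase, had 12.30, 12.10 and 12.13 on the resistant arrays, against 6.52, 6.48 and 6.49 on the sensitive arrays, and rose by 5.68 ± 0.17. SEL1L3 rose by 5.49 ± 0.11 and PSG5, a pregnancy-specific glycoprotein of the placenta, by 5.34 ± 0.10. TMEM140, SLC15A3, a lysosomal peptide transporter, and SIRPA, the receptor for CD47, were undetected on all sensitive arrays and at least 28.7-fold, 29.4-fold and 29.8-fold higher. The limma adjusted p for these 6 genes ran from 8.39e-13 to 5.81e-11. A dimmer SIRPA probe rose by 2.10 ± 0.10. In all, 519 genes were detected on every resistant array and undetected on every sensitive array, and 52 genes showed the opposite, beside the higher number of probes detected on resistant arrays given above.

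At the lower end, GAL, the neuropeptide galanin, had 5.56, 5.66 and 5.71 on the resistant arrays, against 9.60, 9.72 and 9.60 on the sensitive arrays, and fell by 3.99 ± 0.08 (limma adjusted p = 1.2e-12). SOX2, a transcription factor of stem cells and squamous cancers, averaged 4.39 ± 0.03, undetected, on the resistant arrays and 8.04 ± 0.03 on the sensitive arrays (SD, n = 3 each). It was at least 9.66-fold lower in resistant cells on its brightest probe (limma adjusted p = 4.11e-11), and a dimmer SOX2 probe fell by 1.66 ± 0.14. CKB, the brain-type creatine kinase, had 4.93, 4.91 and 4.87 on the resistant arrays, against 8.11, 8.26 and 8.25 on the sensitive arrays, and fell by 3.31 ± 0.13. For all 3, the sensitive arrays lay far above the resistant ones. MALL fell by 3.46 ± 0.11, CA2, a carbonic anhydrase, by 3.38 ± 0.15, AMOT, a scaffold that binds YAP, by 2.93 ± 0.10, ANKRD22 by 2.91 ± 0.10, and LRP8, a receptor for apolipoprotein E, by 2.90 ± 0.09. RPL36A, a ribosomal protein gene with near-identical copies that its probe may not tell apart, fell by 2.97 ± 0.16 and ARHGEF6, a guanine nucleotide exchange factor, by 2.57 ± 0.09. CALB2, calretinin, was at least 4.52-fold lower, TMEM171 at least 4.41-fold, BMP5, a bone morphogenetic protein, at least 3.34-fold and RGS16, a regulator of G protein signalling, at least 2.72-fold. These 4 were undetected on all resistant arrays, and a dimmer CALB2 probe stood at -0.12 ± 0.15, not called. TMEM171, BMP5 and RGS16 met the detection rule only through the sensitive SQ20B arrays, so that the rule itself favoured a difference.

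**Figure D4:**
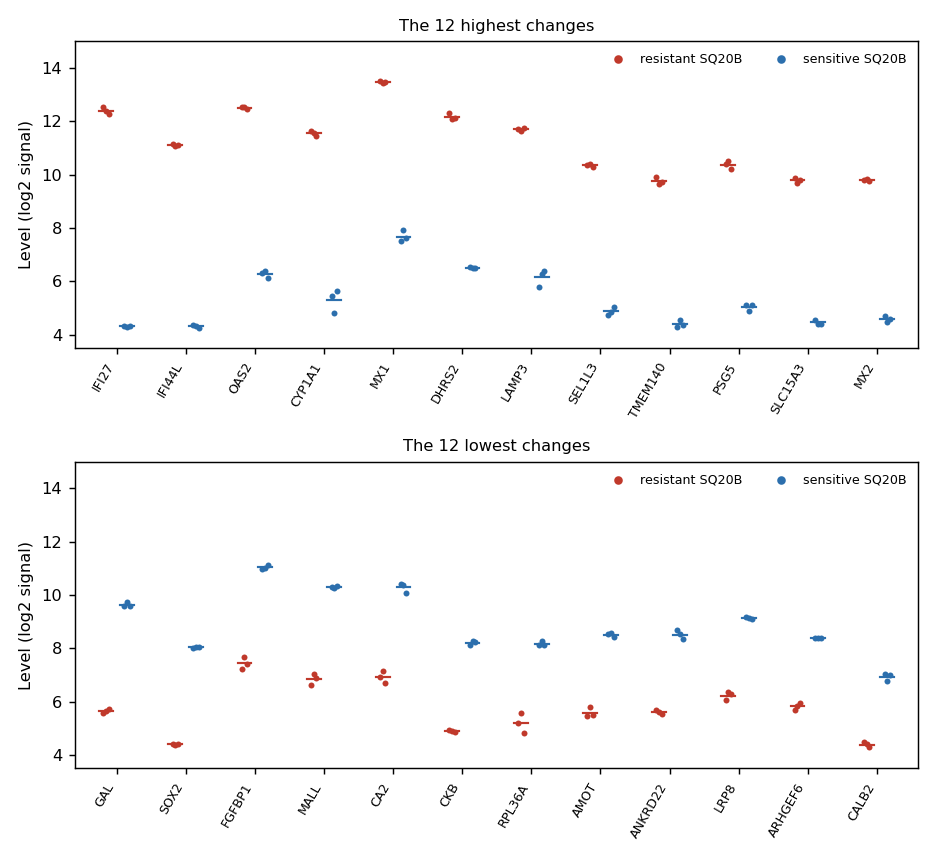
Level in each SQ20B array (log2 signal, vertical axis) for the 12 highest changes (upper panel) and the 12 lowest changes (lower panel), resistant arrays in red left of sensitive arrays in blue, with bars at the means. The groups do not overlap for any gene shown, which the rule for choosing them required.

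FaDu, measured in the same table, allowed a test of whether its resistant cells had changed to the same extent. The change in SQ20B minus the change in FaDu was called for 4804 genes, 37.1%, with 2409 higher in SQ20B (18.6%) and 2395 lower (18.5%). Of the 1199 genes at least 2-fold higher in SQ20B, 774 were also called higher in FaDu, 74 were called lower there and 351 were not called, and the SQ20B change was called larger for 906. Of the 775 genes at least 2-fold lower in SQ20B, 568 were also called lower in FaDu, 29 were called higher and 178 were not called, and the SQ20B change was called lower for 657. Both sets of genes were chosen by their change in SQ20B, which favours a larger change there, so these 2 counts are no support for one. FaDu had fewer changes of at least 2-fold, 626 higher and 187 lower. The 2 lines changed at least 2-fold in opposite directions in 26 genes.

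Interferon-stimulated genes also rose in FaDu in 30 of 44 cases and fell in 7, where 22.6% of all genes were called higher and 22.3% lower, with a median of 0.61, against 44, 0 and 2.48 in SQ20B. OAS2 changed by 6.26 in SQ20B and 3.12 in FaDu, a difference of 3.13 ± 0.13 (limma adjusted p = 3.08e-09). IFI44 and BST2 parted more, at 4.66 and 5.14 in SQ20B and -0.30 and 0.24 in FaDu. Replication genes fell in 32 of 34 cases in SQ20B and 26 in FaDu, and mitosis genes in 33 of 33 cases in SQ20B and 12 in FaDu, where 3 rose, against 28.1% of all genes lower in SQ20B and 22.3% in FaDu. Cholesterol synthesis genes fell in 15 of 20 cases in SQ20B and 16 in FaDu, with medians of -1.54 and -0.73. Glycolysis and hypoxia genes fell in 17 of 26 cases in SQ20B and 18 in FaDu. NF-kB targets had 7 of 21 higher in SQ20B and 17 in FaDu. The difference between the lines was not tested for these counts. CXCL8 stood at -0.92 in SQ20B and 2.28 in FaDu, a difference of -3.19 ± 0.14 (limma adjusted p = 5.19e-09), and NFKBIA at -0.85 in SQ20B and 0.84 in FaDu (limma adjusted p of the difference = 1.24e-05). CYP1A1 differed by -0.58 ± 0.30 (limma adjusted p = 0.158), EGFR by 0.00 ± 0.11 (limma adjusted p = 0.993) and IL6 by 0.25 ± 0.20 (limma adjusted p = 0.377), which does not show that the lines changed alike.

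The 6 largest positive differences were those of DHRS2 at 5.94 ± 0.24, LUM at 5.06 ± 0.14, IFI44 at 4.96 ± 0.13, NPPB at 4.91 ± 0.21, BST2 at 4.91 ± 0.13 and SEL1L3 at 4.87 ± 0.15. NPPB, a natriuretic peptide gene, had 9.48, 9.83 and 9.87 on the resistant SQ20B arrays and 4.75, 4.66 and 5.26 on the sensitive SQ20B arrays. LUM and NPPB were undetected on all FaDu arrays, and LUM also on all sensitive SQ20B arrays, and both met the detection rule only through resistant SQ20B arrays, so their differences are fitted values against background. With the mean of probes the difference of LUM was 3.23 and that of TGM2 -2.67. The 6 lowest were those of TGM2 at -5.42 ± 0.10, VGLL1 at -5.29 ± 0.16, CKB at -4.56 ± 0.19, AMOT at -4.44 ± 0.14, NT5E at -3.99 ± 0.11 and S100P at -3.97 ± 0.17. TGM2, a transglutaminase that crosslinks proteins, had 8.27, 8.29 and 8.37 on the resistant SQ20B arrays, against 10.58, 10.52 and 10.54 on the sensitive SQ20B arrays. It fell by 2.24 ± 0.07 in SQ20B and rose by 3.19 ± 0.07 in FaDu. VGLL1, a cofactor of TEAD factors, fell by 1.76 ± 0.11 in SQ20B and rose by 3.53 ± 0.11 in FaDu, and NT5E, which makes adenosine, stood at -0.09 ± 0.07 in SQ20B (limma adjusted p = 0.318) and rose by 3.90 ± 0.07 in FaDu. All 12 differences were called, with limma adjusted p of 9.04e-12 to 5.29e-09.

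**Figure D5:**
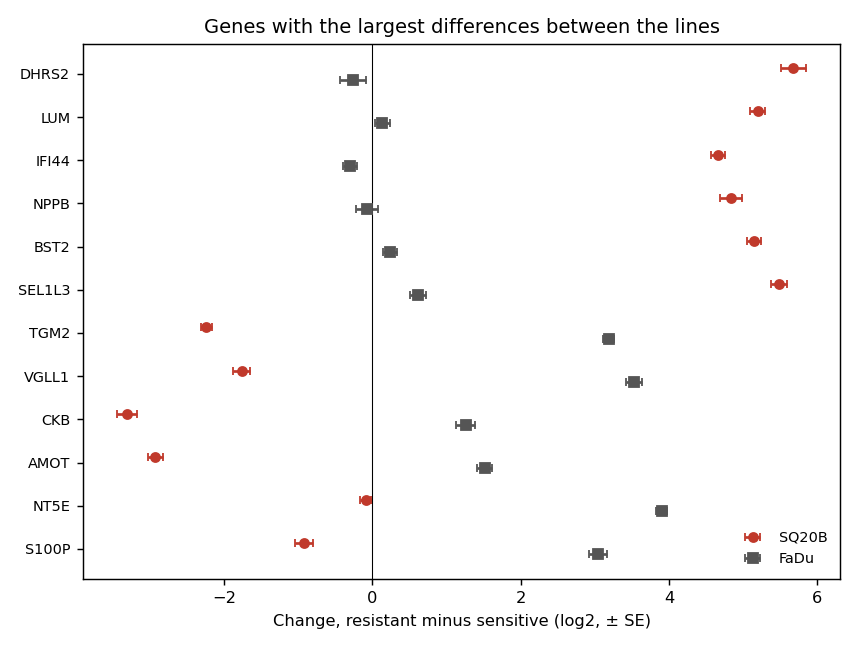
Change, resistant minus sensitive on the log2 scale ± the standard error from limma (horizontal axis, 3 arrays in each group), in SQ20B (red circles) and FaDu (grey squares) for the 12 genes with the largest called differences between the lines. In TGM2, VGLL1, CKB, AMOT and S100P the SQ20B change lies below 0 and the FaDu change above it.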

How the data were processed

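RNA of 12 cultures, 3 per group, was hybridised to Illumina beadchips. The table of bead signal intensity and detection p-value per probe was deposited by the authors without normalization, and the submitters' processing notes name GenomeStudio with no version. A second table of processed intensity, deposited by the authors, served as an alternative, which no source used here describes further. A detection p-value, per the file headers, accompanies each signal. In the probe annotation used here, 17110 probes had no gene symbol and 8 had several. The 12 arrays were background-corrected with neqc (offset 16), quantile-normalized and put on the log2 scale in limma 3.58.1 under R 4.3.3. Its lmFit and eBayes then fitted the 4 groups together, and the difference between the lines was a contrast in that fit. The fit was tested on simulated data.

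Named genes were the 12 highest and 12 lowest called changes with no overlap, and up to 4 called genes with no overlap per list and direction. Further named genes were 6 line differences each way, up to 6 genes detected in 1 group alone each way, the EGFR family and the cell markers. The members and lists were chosen with earlier results of these data known. Alternatives covered background, scaling, filters, probes, the variance model, the replicate block and single arrays left out. Same-numbered resistant and sensitive arrays deviated from their group means with correlations of 0.077, -0.012 and 0.048 across genes. Differently numbered arrays had -0.079 to 0.037. With 3 arrays per group, these values cannot decide whether the numbers pair the arrays. The number of arrays limits the precision. The SCC25 and Cal27 arrays were not used here.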

Additional observations from a re-analysis of the deposited data

Results flagged for a closer look

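The change, resistant minus sensitive cells, was compared between SQ20B and FaDu by a contrast in limma, and 4804 genes passed. Among them, the 6 largest positive values of SQ20B minus FaDu belonged to DHRS2 at 5.94, LUM at 5.06, IFI44 at 4.96, NPPB at 4.91, BST2 at 4.91 and SEL1L3 at 4.87 on the log2 scale. The 6 lowest belonged to TGM2 at -5.42, VGLL1 at -5.29, CKB at -4.56, AMOT at -4.44, NT5E at -3.99 and S100P at -3.97. LUM and NPPB were undetected on all FaDu arrays, so their values are against background. In NT5E the difference came with a change of -0.09 in SQ20B that was not called.

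Probes that carry no gene symbol, or several, in the annotation used here were outside the comparison of genes. Of 5966 such probes that met the detection rule, 238 were at least 2-fold higher in resistant SQ20B cells and 333 at least 2-fold lower.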

How the results depend on the processing

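Over 16 alternatives the number of genes called in SQ20B lay between 7104 and 7768, against 7642, and between 7104 and 7251 with single arrays left out. The 2-fold counts fell to 591 higher and 315 lower without background correction, and to 737 higher and 437 lower with normexp and an offset of 50, against 1199 and 775. Of 220 named genes, 70 then had a log2 change more than 1.5 times smaller without background correction, so the size of a fold near background depends on that step. The mean of a gene's probes moved TXNRD1 to 0.38, DSC3 to 0.35, JUP to 0.29, TIMP2 to 0.90, CD68 to 0.27 and CALB2 to -1.34 on the log2 scale, and turned ORC6 to -0.35 and ERBB3 to -0.11. Calls were lost under at least 1 alternative for EPSTI1, MAVS, IRF2, IL36RN, TYRO3, CDKN2D, ADM, KLK11, PKP3 and ERBB3, and gained for CDH1, EPCAM and KRT7. The difference between the lines was called for 3988 genes with median scaling and 5147 without background correction. Median scaling put 58.3% of calls higher, against 52.4%. With the replicate number as a block, 7567 genes were called, and 4620 for the difference between the lines, and the call of EPSTI1 was lost. The labels do not say whether the numbers pair the arrays. Signal over background limits 519 and 52 genes detected in 1 group alone to bounds.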

Other observations

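Several gene families moved together in SQ20B, and they were picked after their values were seen. Some of their members, among them LAMB3, IGFBP3, IGFBP5 and IGFBP7, are also on the lists above. All 8 tested pregnancy-specific glycoprotein genes, which the placenta expresses, were called higher, with a median of 3.91 in SQ20B and 1.21 in FaDu. All 4 tested glutathione S-transferase mu genes, which conjugate foreign compounds, were called higher, with a median of 3.23 in SQ20B and 0.31 in FaDu. GSTM2 changed by 4.61 ± 0.08 and GSTM1 by 3.68 ± 0.10. Members of both families are near-identical, so that a probe may read several of them. Laminin genes were higher in 6 of 8 cases in SQ20B and 4 in FaDu, with 0 lower in either line. Insulin-like growth factor binding protein genes were higher in 5 of 7 cases in both lines, with 0 lower in SQ20B and 1 in FaDu.

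Other families had more members lower than higher, and they too were picked after their values were seen. Of 76 mitochondrial ribosomal protein genes, 57 fell and 1 rose, with a median of -0.57. Proteasome genes fell in 26 of 33 cases, with a median of -0.57, and the 3 that rose were PSMB8, PSMB9 and PSMB10, the catalytic subunits of the interferon-inducible immunoproteasome. Of 29 RNA polymerase subunit genes, 20 fell and 1 rose, and of 131 small nucleolar RNA genes, 56 fell, 4 rose and 71 were not called. In FaDu, 45 mitochondrial ribosomal protein, 24 proteasome, 14 RNA polymerase and 57 small nucleolar RNA genes fell, and 3, 3, 1 and 5 rose. Over all tested genes, 31.0% were called higher and 28.1% lower in SQ20B, and 22.6% and 22.3% in FaDu.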
